A study of Mus musculus with 6 samples.

Results

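Major urinary proteins (MUPs) are small lipocalins that the mouse liver secretes in large amounts and that reach the urine, where they bind and slowly release volatile pheromones and act as scent signals themselves. They are encoded by a tandem array of genes and pseudogenes, most of which are near-identical copies. In the liver, transcription of *Mup* genes is known to depend on pulsatile growth hormone acting through the growth hormone receptor, JAK2 and STAT5b, and on glucocorticoid, thyroid hormone and liver-enriched factors such as HNF4A, and adult males express more than females.

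The family was taken as every line of the expression table whose gene name is *Mup* or *Mup-ps* followed by a number, which gave 49 of 57180 genes. Of these, 22 are protein-coding and 27 are pseudogenes. The names alone pick the members, but the family itself was chosen by the log2 fold changes and calls of the STING-LKO against STING-Loxp contrast, in which *Mup* genes were already known to be among the largest changes. The values below that compare the groups therefore describe the members and carry no p. RNA was sequenced from primary hepatocytes of male mice in 6 libraries, 3 labelled LOXP (STING-Loxp) and 3 labelled KO (STING-LKO). STING-Loxp mice carry floxed STING alleles. STING-LKO mice came from STING floxed mice crossed with Albumin-Cre mice, in which the albumin promoter drives Cre in hepatocytes. All cells were kept in medium with 0.1 µM dexamethasone, a glucocorticoid, and fetal bovine serum, and all were treated with 0.1 mM palmitate for 24 h, so no untreated cells were compared. The study's methods give its mice as 8 to 10 weeks old and on a C57BL/6 background. Whether the 3 libraries of a group came from separate mice is not given in the sources used here, so that errors and p-values measure only the spread between these libraries.

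Counted reads ran from 14726983 to 18536985 per library. *Alb*, the defining hepatocyte product, had an FPKM (counts scaled to the gene's length and the library's counted reads) between 6468 and 7791 in each library. For *Sting1*, the targeted gene, the 3 STING-Loxp libraries held 19, 16 and 23 counts and the 3 STING-LKO libraries 24, 23 and 15 (log2 fold change -0.08 ± 0.30, SE, with a Benjamini-Hochberg adjusted p = 0.883 in the edgeR quasi-likelihood fit), so no loss in the knockout was detected at these low counts and the genotype of the libraries is taken from the labels. RT-PCR of the gene in purified hepatocytes, which the study also ran, is not used here. STING-LKO below means the libraries so labelled. Of 21 hepatocyte markers, all tested, 17 fell and 0 rose at an adjusted p under 0.05, beside 11.6% and 11.5% of all tested genes, with a median log2 fold change of -0.59, and their summed FPKM went from a range of 13490 to 14730 in STING-Loxp to one of 11020 to 11240 in STING-LKO. *Hnf4a* is in that list and among the regulators described below. The markers of other liver cells summed to less. Macrophage and Kupffer cell markers summed to an FPKM between 62.8 and 79.4 in STING-Loxp and between 49.6 and 58.5 in STING-LKO, and 2 of the 11 tested fell. Endothelial markers summed to between 33.2 and 35.4 against 30.4 and 33.4, with 1 of 9 lower, and stellate cell markers to between 9.55 and 11.4 against 11.1 and 11.6, with none of 8 past the test. Cholangiocyte markers summed to between 119 and 140.2 against 61.8 and 72.7, with 3 of 4 lower and 1 higher, and *Cldn4* alone made up most of that sum, with a mean FPKM of 111.1 in STING-Loxp and 55.8 in STING-LKO. Lymphocyte and neutrophil markers did not exceed a summed FPKM of 0.563, and *Cd3e*, *Cd79a*, *Gzma*, *Ly6g* and *Nkg7* had 0 counts. The part of these shifts in the *Mup* values was not tested, and fewer hepatocytes and less RNA per hepatocyte cannot be told apart in bulk RNA.

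The table places 48 members on chromosome 4 between 59956804 and 62069100 (GRCm39), a stretch of 2.112 Mb, and the pseudogene *Mup-ps22* on chromosome 11. The protein-coding members fall into 2 kinds. The 16 central copies (*Mup1*, *Mup2*, *Mup7* to *Mup19* and *Mup22*) were 98.2 to 99.8% identical to each other over their coding sequence in GENCODE M21 (GRCm38), a difference of 1 to 10 bases between any pair, and they differed at 20 of 555 aligned columns. The 6 divergent members (*Mup3*, *Mup4*, *Mup5*, *Mup6*, *Mup20* and *Mup21*) differed from the central copies by 49 to 99 bases and from one another by 29 to 98. The first 66 coding bases, which include the start of the signal peptide, are printed for 8 members because they show how little sequence separates copies whose values differed most. Capitals mark each base that departs from the commonest base of the aligned central copies, and positions are those of GRCm38.
Mup9 (chr4:60421821-60421886, minus strand): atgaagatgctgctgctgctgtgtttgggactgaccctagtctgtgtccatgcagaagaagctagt
Mup2 (chr4:60139721-60139786, minus strand): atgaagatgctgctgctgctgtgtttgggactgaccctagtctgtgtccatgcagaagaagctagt
Mup17 (chr4:61595695-61595760, minus strand): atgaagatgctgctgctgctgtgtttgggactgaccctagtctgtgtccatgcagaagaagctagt
Mup19 (chr4:61782093-61782158, minus strand): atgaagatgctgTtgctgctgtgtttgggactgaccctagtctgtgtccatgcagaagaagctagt
Mup12 (chr4:60741150-60741215, minus strand): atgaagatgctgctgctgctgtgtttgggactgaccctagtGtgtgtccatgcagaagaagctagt
Mup11 (chr4:60662235-60662300, minus strand): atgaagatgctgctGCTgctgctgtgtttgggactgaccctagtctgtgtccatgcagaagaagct
Mup5 (chr4:61835057-61835122, minus strand): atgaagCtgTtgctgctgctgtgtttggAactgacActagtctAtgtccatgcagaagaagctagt
Mup3 (chr4:62087166-62087231, minus strand): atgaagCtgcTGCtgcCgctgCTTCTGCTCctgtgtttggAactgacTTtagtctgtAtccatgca

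*Mup9*, *Mup2* and *Mup17* are the same over this stretch, *Mup19* differs from them by 1 base, and *Mup11* carries a run of 3 added bases, while *Mup5* has 5 and *Mup3* 18 departures. Reads were 150 bases long and paired. For each protein-coding member, 1 transcript, with a coding length nearest to 540 bases, was therefore cut into every 150-base window. A window was called unique if no other member and no gene outside the family held it. Some genes were longer as counted. Count and FPKM imply 2842 bases for *Mup9*, whose transcript here had 864, but 927 for *Mup17*, the same as its transcript. The unique shares leave out any such further sequence. *Mup22* had no unique window, *Mup19* had 0.90% and *Mup2* 9.25%, against 59.6% for *Mup17*, the most distinct central copy. *Mup9*, which differs from *Mup19* by 1 coding base, shared 490 of its 715 windows with it. *Mup3*, *Mup4*, *Mup5*, *Mup6* and *Mup21* shared 0 windows with any other member, and *Mup20* shared 242 of 779 with *Mup-ps19* only. How the authors' counting placed a read that fits several copies is not given in the sources used here, so the value of a central copy depends on that step. A sum over copies does not depend on how reads are split between them, but would depend on whether such reads were counted at all. The divergent members that share 0 windows are free of both over the transcripts compared. A pair of reads can be placed by either mate, so that single windows understate how many fragments are unique, and the windows come from the reference strain. Among member windows, 26 also lay in 1 gene outside the family.

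Summed over the 49 members, the family's RNA was lower in STING-LKO. The summed level, in counts scaled to TMM-normalized library sizes (CPM), was 22174, 20684 and 20943 in the STING-Loxp libraries, in the order of their replicate numbers here and below, against 8783, 8573 and 8182 in the STING-LKO libraries. The groups did not overlap, with means of 21267 ± 796 and 8513 ± 305 CPM (SD, n = 3 per group), 2.50-fold lower in STING-LKO. The family took 2.01 to 2.21% of all counted reads in STING-Loxp and 0.837 to 0.889% in STING-LKO. Relative to *Alb* in the same library, which itself fell, the members had 107 ± 7.51 counts per 100 *Alb* counts in STING-Loxp against 51.4 ± 1.16 in STING-LKO. With the family's counts entered as 1 row in the fit across all genes, the log2 fold change was -1.32 with a standard error of 0.05.

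**Figure D1:**
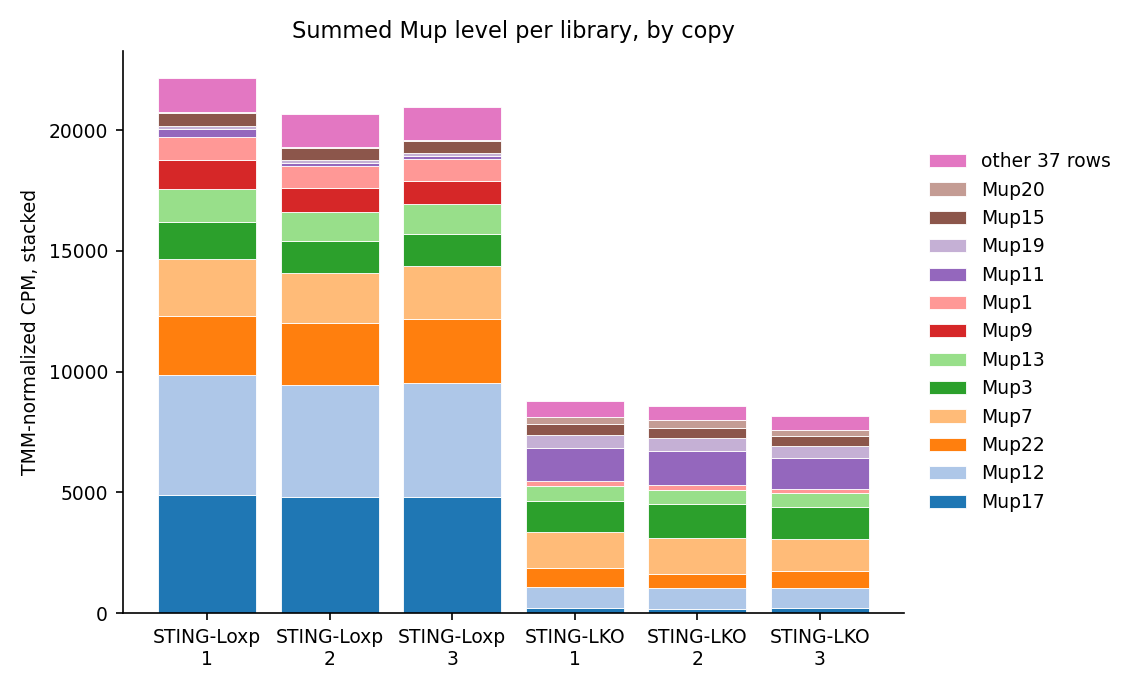
Stacked bars give the TMM-normalized CPM, on a linear axis, of the Mup members in each of the 6 libraries, with 12 members drawn singly and the rest joined. The 3 STING-Loxp bars reach 20684 to 22174 CPM and the 3 STING-LKO bars 8182 to 8783, and the segments of Mup17 and Mup12, at the base of each bar, shrink most in height while that of Mup11 grows.

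The fall of the sum lay in the central copies. Their summed level was 20528, 19242 and 19476 CPM in STING-Loxp against 7016, 6697 and 6403 in STING-LKO, 2.95-fold lower. The divergent members went from 1610, 1407 and 1431 to 1588, 1714 and 1611 CPM, so the groups overlapped, although as FPKM they did not (1187 to 1390 against 1436 to 1529), and 2 members made up most of that sum, *Mup3* and *Mup20*. The pseudogenes together went from 36.0, 34.5 and 36.6 to 178.7, 162 and 168 CPM, 4.75-fold higher, nearly all of it *Mup-ps19*. Without *Mup12* and *Mup17* the central sum was 1.79-fold lower, and without *Mup3* the divergent sum was higher by 1.68 on the log2 scale. Both sums were chosen after the values were seen.

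Of the 49 members, 21 had enough counts to be tested, 20 protein-coding genes and *Mup-ps19*, each with a group mean over 1 FPKM. Of these 21, 10 were lower and 5 higher in STING-LKO by the study's 3 criteria, namely an adjusted p under 0.05, an absolute log2 fold change above 1 and a group mean over 1 FPKM, where 1.49% of all 14151 tested genes were lower and 0.558% higher, 2.05% in all. This contrast chose the family, so nothing is read from the count. By direction alone 15 were lower and 6 higher, where 50.3% of all tested genes were in the lower direction. The libraries of the groups did not overlap for 14 lower and 5 higher members, beside 20.3% and 20.4% of all tested genes. The median log2 fold change of the 21 was -0.61, beside -0.002 over all tested genes, and the values ran from -7.21 to 2.69. Standard errors of these log2 fold changes lay between 0.05 and 0.14, except for *Mup11* (0.31) and *Mup5* (0.67). Each of the remaining 28 members had too few counts. *Mup4*, which is known from nasal and lacrimal tissue, and 21 pseudogenes had 0 counts in all libraries. An observed 0 still allows an expected count of up to 3 in a library. *Mup6* had 35 counts in all, and *Mup-ps8*, *Mup-ps16*, *Mup-ps17*, *Mup-ps18* and *Mup-ps22* had at most 7.

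**Figure D2:**
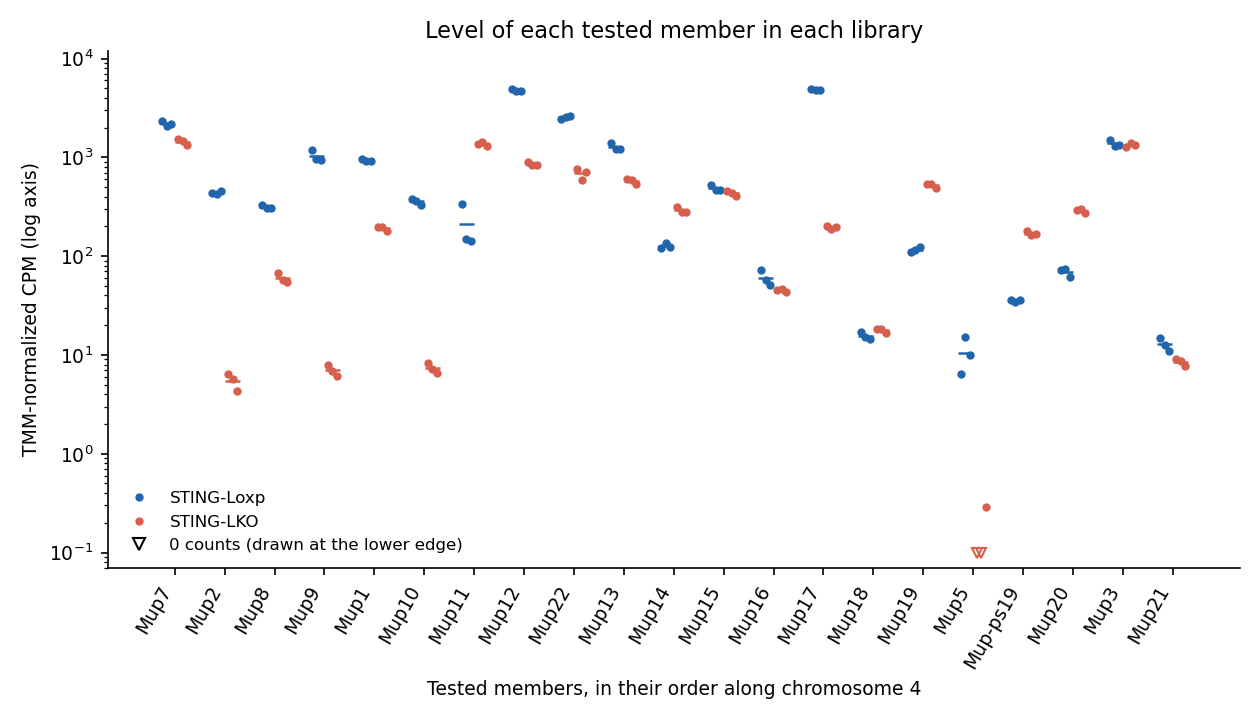
Each point is the TMM-normalized CPM of a tested member in 1 library, on a log axis, with a short line at the mean of the 3 libraries of a group (STING-Loxp left, STING-LKO right) and open triangles for libraries with 0 counts. The groups overlap for Mup3 and Mup18, while Mup9, Mup2 and Mup10 drop to below 10 CPM.

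*Mup17* and *Mup12* were the most abundant copies in STING-Loxp and accounted for most of the fall in the sum. *Mup17* (ENSMUSG00000096688, chromosome 4, 61510166 to 61514108) had 4907, 4789 and 4810 CPM in STING-Loxp against 203, 189 and 196 in STING-LKO. Its STING-Loxp libraries lay within a coefficient of variation of 1.30%, and the fold change was 24.7 (log2 fold change -4.63, standard error 0.05). *Mup12* (ENSMUSG00000094793, 60693382 to 60697325) had 4962, 4644 and 4733 CPM against 887, 842 and 834, 5.59-fold lower. *Mup17* and *Mup12* were thus alike in level in STING-Loxp, whereas *Mup12* was the higher in every STING-LKO library. *Mup22*, the copy without a unique window, had 2446, 2562 and 2649 CPM against 768, 595 and 708. *Mup1*, which differs from *Mup12* by 2 coding bases, had 952, 917 and 920 CPM against 197, 198 and 181, and *Mup8* had 331, 309 and 308 against 68.0, 57.0 and 54.9. These 3 copies were 3.70-fold, 4.84-fold and 5.28-fold lower.

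The counts placed on *Mup9*, *Mup2* and *Mup10* were reduced to a small remainder in STING-LKO. In the transcript compared for each, these copies had 23.1%, 9.25% and 15.6% unique windows, so their values depend on how shared reads were placed. *Mup9* (ENSMUSG00000078686, 60374045 to 60377951) went from 18783, 13876 and 14327 counts in the STING-Loxp libraries to 123, 129 and 105 in STING-LKO. *Mup2* (ENSMUSG00000078688, 60135932 to 60154289) had 6857, 6097 and 6983 counts against 100, 106 and 75. *Mup10* (ENSMUSG00000078680, 60534259 to 60538198) had 6009, 5222 and 5022 counts against 129, 134 and 114. All 3 thus kept a small number of counts in each STING-LKO library. Their summed level went from 1994, 1759 and 1731 to 22.4, 19.9 and 17.1 CPM, 92.3-fold lower, and this sum was chosen after the values were seen.

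*Mup13*, *Mup7*, *Mup15* and *Mup16* were lower by less. *Mup13* had 1387, 1221 and 1225 CPM in STING-Loxp against 610, 584 and 540 in STING-LKO, 2.21-fold lower. *Mup7*, the first tested copy of the array, had 2358, 2095 and 2170 CPM against 1518, 1472 and 1347, 1.53-fold lower, short of the fold criterion. *Mup15* had 529, 472 and 472 CPM against 462, 435 and 402, and *Mup16* had 72.9, 57.0 and 51.3 against 45.1, 46.8 and 43.2. In CPM the libraries of the 2 groups did not overlap for any of these 4. For *Mup15* the gap between the nearest libraries was small beside the spread within each group, and as FPKM the groups overlapped (496 to 571 against 445 to 505).

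Of the central copies that were higher in STING-LKO, *Mup11* and *Mup14* lay between copies that were lower. *Mup11* (ENSMUSG00000073834, 60614465 to 60618410) had 339, 149 and 144 CPM in STING-Loxp against 1369, 1427 and 1294 in STING-LKO. STING-Loxp replicate 1 stood above the other 2 libraries of its group, whose coefficient of variation was 52.8% where the median over the tested members was 6.74%. The log2 fold change was 2.69 (standard error 0.31) with that library and 3.22 without it. In the same library *Mup22* was the lowest of its group, with 2446 CPM against 2562 and 2649. *Mup11*, *Mup18* and *Mup22* together held 2801, 2727 and 2807 CPM in STING-Loxp. Whether reads were placed differently between these copies in that library was not tested. *Mup19* (ENSMUSG00000078673, 61696561 to 61700506) had 110, 116 and 123 CPM against 536, 534 and 490.2, 4.46-fold higher, and *Mup14* had 122, 135 and 125 against 312, 280 and 278, 2.28-fold higher. *Mup18* overlapped between the groups, with 17.0, 15.3 and 14.5 CPM in STING-Loxp against 18.5, 18.3 and 16.7 in STING-LKO, but as FPKM a narrow gap lay between them (15.43 to 18.27 against 18.33 to 20.17).

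Since reads can pass between such copies, they were also summed within groups of copies joined by few coding differences, chosen after the values were seen. The groups follow coding differences and do not enclose all shared windows. *Mup22* shared most with *Mup10* (654 of 712 windows) and *Mup18* with *Mup19* (515 of 781), each outside its own group at 1 difference. These sums therefore still depend in part on how shared reads were split. *Mup11*, *Mup18* and *Mup22*, linked by at most 1 difference each, held 2801, 2727 and 2807 CPM in STING-Loxp against 2155, 2040 and 2018 in STING-LKO. The sum was 1.34-fold lower, although *Mup22* alone was lower and *Mup11* higher by larger folds. *Mup9*, *Mup16* and *Mup19* held 1367, 1142 and 1116 CPM against 589, 587 and 539, 2.11-fold lower, although *Mup19* alone was higher. With *Mup2*, *Mup10* and *Mup15* added, which are linked to them by at most 2 differences, the sum went from 2707, 2405 and 2377 to 1065, 1036 and 952 CPM, 2.45-fold lower. *Mup1* and *Mup12* together went from 5914, 5561 and 5654 to 1084, 1040 and 1016 CPM, 5.46-fold lower. In each of these 4 sums, no STING-LKO library reached the lowest STING-Loxp library, in CPM or as FPKM. The folds depend on the scale, since the copies differ in annotated length. Summed as FPKM, they were 2.06 for *Mup11*, *Mup18* and *Mup22*, 1.13 for *Mup9*, *Mup16* and *Mup19*, 1.66 with *Mup2*, *Mup10* and *Mup15* added, and 5.40 for *Mup1* and *Mup12*, all lower in STING-LKO.

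The divergent members, whose compared transcripts share no window with the central copies, also went different ways. *Mup3* (ENSMUSG00000066154, 62001713 to 62005579) had 1516, 1306 and 1348 CPM in STING-Loxp against 1287, 1402 and 1331 in STING-LKO, so the groups overlapped and the log2 fold change was -0.05 with a standard error of 0.07. *Mup5* (ENSMUSG00000058523, 61749556 to 61753470) had 102, 219 and 151 counts against 0, 0 and 5. It was the lowest of the tested members in STING-LKO, and its log2 fold change of -6.65 (standard error 0.67) rests on those 5 counts in STING-LKO replicate 3. *Mup20* (ENSMUSG00000078672, 61968471 to 61972395), which encodes darcin, a male pheromone protein that attracts females, had 72.3, 73.5 and 61.5 CPM against 291, 303 and 272, 4.18-fold higher. *Mup-ps19*, the pseudogene with which *Mup20* shares windows, had 35.9, 34.4 and 36.4 CPM against 178.6, 162 and 168, 4.76-fold higher, and both together went from 105 ± 5.84 to 458 ± 16.4 CPM, 4.38-fold higher. *Mup21*, at the far end of the array, had 14.9, 12.6 and 11.0 CPM against 9.16, 8.62 and 7.80, with no overlap and a log2 fold change of -0.59 (standard error 0.14).

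The makeup of the family's counts shifted along with their sum. Shares of central copies, and the effective number of copies built from them, depend on how shared reads were placed, and *Mup22* had no unique window. *Mup17*, *Mup12* and *Mup22* held 57.3 ± 1.49% of all *Mup* counts in STING-Loxp (SD, n = 3 per group) against 20.5 ± 1.29% in STING-LKO. *Mup7*, *Mup3* and *Mup11* held 17.9 ± 0.981% against 48.7 ± 1.33%. Each trio was chosen after the values were seen, as the 3 largest shares of STING-Loxp and of STING-LKO, so opposite shifts are built in. *Mup17* went from 22.7 ± 0.546% and rank 1 to 2.30 ± 0.094% and rank 11, and *Mup11* from 0.978 ± 0.476% and rank 13 to rank 2, with 15.6, 16.6 and 15.8% in the STING-LKO libraries. *Mup3*, whose level hardly moved, went from 6.53 ± 0.274% to 15.8 ± 0.956% while the total fell. The effective number of copies, the inverse of the summed squared shares, was 6.96 to 7.27 in STING-Loxp and 8.83 to 9.20 in STING-LKO, so that the reads were spread over somewhat more copies. Within a group the shares moved little, by at most 1.02 percentage points (SD) for any single member. Shares are of counts and not per length. The gene lengths implied by count and FPKM ran from 519 to 2842 bases over the tested members (*Mup-ps19* and *Mup9*), since the annotated exons differ between copies, so levels between copies also depend on the annotation. Per length, as FPKM, *Mup17* (5153 ± 132) and *Mup12* (5100 ± 239) also led in STING-Loxp and did not differ beyond their spread. In STING-LKO *Mup3* (1148 ± 42.6 FPKM) led, followed by *Mup12* (934 ± 31.8), *Mup7* (855 ± 46.6) and *Mup22* (812 ± 109), of which *Mup7* and *Mup22* did not differ beyond their spread.

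**Figure D3:**
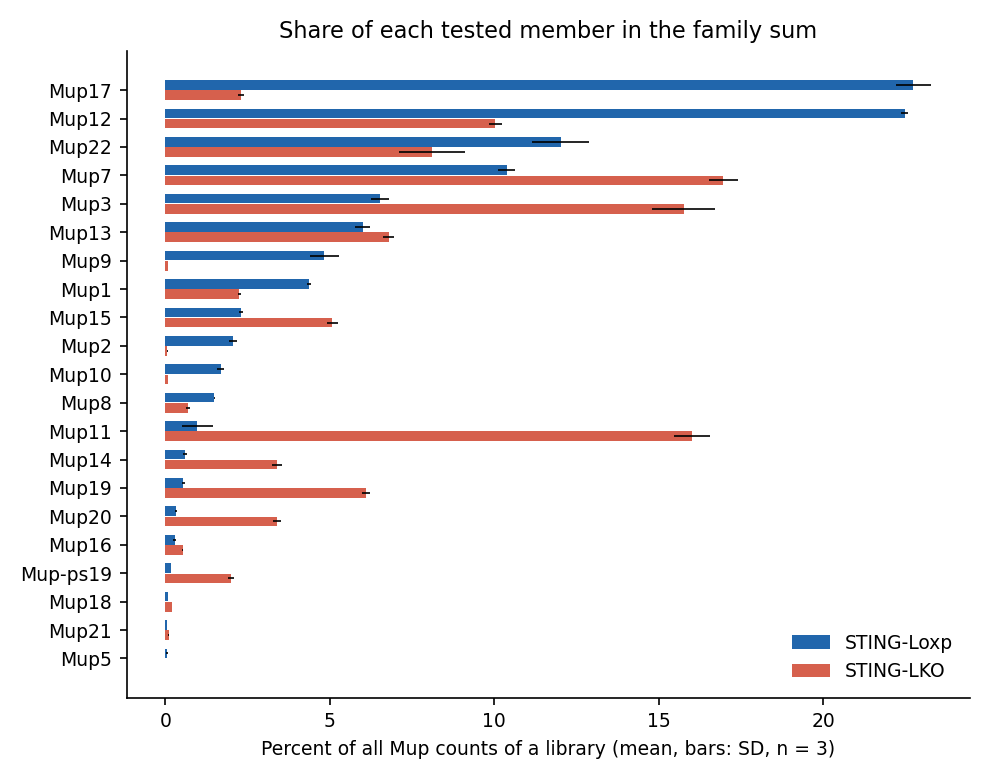
Bars give the mean share of each tested member in all Mup counts of a library, in percent, with the SD over 3 libraries, for STING-Loxp (blue) and STING-LKO (red). Mup17 and Mup12 each hold over 22% in STING-Loxp, while in STING-LKO Mup7, Mup11 and Mup3 are the longest bars at 15.8 to 17.0%.

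Higher and lower members were interspersed along the array, so that neighbours on the chromosome could differ in direction. Among the tested members, *Mup11* lies between *Mup10* and *Mup12*, both lower. *Mup19* lies between *Mup18*, whose groups overlapped in CPM, and *Mup5*, which was lower but had few counts. The direction of a single central copy depends on how shared reads were placed, and *Mup19* had only 0.90% unique windows. The promoter sequences of copies with opposite measured changes were close to each other. RefSeq promoters (GRCm38.p6) were matched by symbol for 14 of the 22 protein-coding members. Over aligned windows *Mup9* differed from *Mup17* by 6 of 294 bases and from *Mup19* by 6 of 299, and *Mup17* from *Mup19* by 7 of 297, whereas *Mup3* differed from *Mup9* by 65 of 280. The letters TATATAA, a core promoter element, were searched on both strands and occurred in 13 of the 14 windows of 300 bases, all but that of *Mup7*, as in 3.24% of 32851 mouse promoters of that length. The STAT5 consensus TTCNNNGAA, in which N is any base, occurred in 0 of the 14 and in 8.30% of all promoters. A match or its absence in these short windows is a description of the sequence only. The 150 bases before the annotated start are printed for 2 lower copies, 1 higher copy and the divergent *Mup3*, with TATATAA in capitals. The central copies counted as lower and higher share them almost base for base, which does not settle whether their transcription differed in direction.
Mup9 (chr4:60421953-60422102, minus strand): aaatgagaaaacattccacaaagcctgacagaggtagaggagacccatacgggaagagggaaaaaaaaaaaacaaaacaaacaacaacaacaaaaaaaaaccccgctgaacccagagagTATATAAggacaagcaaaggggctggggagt
Mup17 (chr4:61595833-61595982, minus strand): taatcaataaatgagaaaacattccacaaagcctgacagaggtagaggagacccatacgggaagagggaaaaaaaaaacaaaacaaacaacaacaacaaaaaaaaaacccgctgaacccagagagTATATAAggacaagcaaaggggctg
Mup19 (chr4:61782225-61782374, minus strand): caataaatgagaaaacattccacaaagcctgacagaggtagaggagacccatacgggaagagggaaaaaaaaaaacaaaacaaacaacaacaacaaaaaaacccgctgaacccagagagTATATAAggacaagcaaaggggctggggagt
Mup3 (chr4:62087318-62087467, minus strand): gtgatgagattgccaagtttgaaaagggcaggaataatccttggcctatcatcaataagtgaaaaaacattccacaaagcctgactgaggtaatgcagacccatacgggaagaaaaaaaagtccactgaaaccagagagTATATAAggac

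The first base of TATATAA lay at position -31 from the annotated start in *Mup9* and *Mup19*, at -25 in *Mup17* and at -11 in *Mup3*, positions that depend on where RefSeq places each start.

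Genes around the array were examined to see whether neighbours that are not *Mup* genes moved too. Within 2 Mb of the outermost members or between them lay 91 other genes, of which 35 were tested. The 6 that lie inside the array had at most 4 counts in a library. Of the 35, 13 fell and 6 rose at an adjusted p under 0.05, where 11.6% of all tested genes were lower and 11.5% higher, and their median log2 fold change was -0.11. Measured to its nearer end, the closest tested gene on each side was not past the test (*Snx30*, -0.11, adjusted p = 0.481, and *Zfp37*, -0.32, adjusted p = 0.609, both in the edgeR quasi-likelihood test). The neighbours that changed most were *Orm2* and *Orm3*, *Gm12543* and *Hdhd3*. *Orm1*, the most abundant of them, fell from 774 ± 20.0 to 496 ± 40.3 CPM. The transcribed processed pseudogene *Gm12543*, which the table places inside the span of *Snx30* so that reads of the 2 may not be told apart, rose from 1.45 ± 0.278 to 5.23 ± 0.358 CPM (log2 fold change 1.85, adjusted p = 5.43e-04 in the edgeR quasi-likelihood test). *Hdhd3* had a log2 fold change of -1.61 (adjusted p = 3.05e-04 in the same test) and *Alad*, an enzyme of heme synthesis, fell by 0.94 (adjusted p = 1.86e-04 in the same test).

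**Figure D4:**
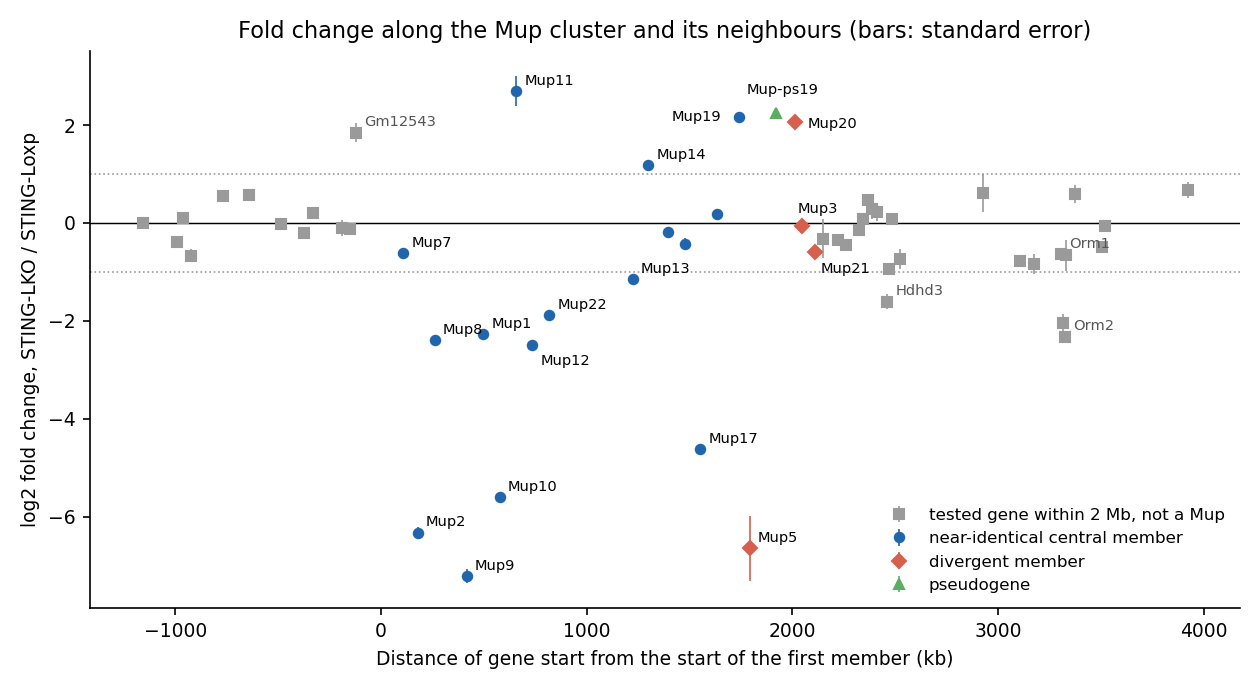
The log2 fold change of STING-LKO over STING-Loxp, with its standard error, is plotted against the distance of each gene's start from the first member of the array in kb, for central members (circles), divergent members (diamonds), Mup-ps19 (triangle) and the 35 tested neighbours (squares), with dotted lines at a log2 fold change of 1 and -1. Higher and lower members are interspersed along the array, and the neighbours lie between -2.32 and 1.85.

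*Orm1*, *Orm2* and *Orm3* are orosomucoids, acute-phase plasma proteins, and belong with the MUPs to the lipocalins, as does *Ambp*, which lies near them. Among 23 other lipocalin genes in the table, 8 were tested, all 8 were in the lower direction, and 5 fell past the test, beside 11.6% of all tested genes. *Orm2* fell from 65.1 ± 3.54 to 13.0 ± 0.918 CPM (log2 fold change -2.32, standard error 0.08, adjusted p = 1.33e-06 in the edgeR quasi-likelihood test). *Orm3*, *Ambp*, *Orm1* and *Apom*, an apolipoprotein of high-density lipoprotein, had log2 fold changes of -2.05, -0.77, -0.64 and -0.27 (adjusted p from 1.63e-04 to 0.0164 in the same test). Leaving out STING-Loxp replicate 3 moved the adjusted p of *Apom* to 0.0537 and leaving out STING-LKO replicate 2 moved it to 0.0756, while all 8 passed without STING-Loxp replicate 1. The *Orm* genes are close paralogs between which reads can be shared, and 13 lipocalins, among them the odorant-binding *Obp1a* and *Obp1b* and most *Lcn* genes, had 0 counts in all libraries.

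The genes listed as regulators of *Mup* transcription, with some targets of growth hormone among them, changed less in the median than the family. Of the 30 listed genes, 29 were tested, with a median log2 fold change of -0.14. At an adjusted p under 0.05, 6 fell and 2 rose (11.6% and 11.5% of all tested genes). *Igf1*, listed as a target of growth hormone and not as a controller of *Mup* genes, is among the 6 that fell. *Ghr*, the growth hormone receptor, fell from 69.7 ± 4.42 to 54.0 ± 4.21 CPM (log2 fold change -0.37, adjusted p = 0.0151 in the edgeR quasi-likelihood test), and *Jak2*, its kinase, fell by 0.34 (adjusted p = 0.0109 in the same test). *Stat5b*, the factor that growth hormone pulses activate, had 65.4 ± 3.88 against 59.4 ± 2.40 CPM, with overlapping groups (adjusted p = 0.206 in the same test). Of the genes that growth hormone is known to induce, *Igf1* fell by 0.44 (adjusted p = 0.00272) and *Socs2* by 0.77 (adjusted p = 0.00180 in the same test), while *Cish* did not pass (0.23, adjusted p = 0.388).

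*Bcl6*, a repressor with male-biased expression, had 25.4 ± 6.89 CPM in STING-Loxp and 15.3 ± 0.335 in STING-LKO (log2 fold change -0.73, adjusted p = 0.0177 in the edgeR quasi-likelihood test), and *Cux2*, a female-specific factor in liver, was too low to be tested, with a mean of 0.133 CPM in STING-Loxp and 0 counts in STING-LKO. *Hnf4a*, which encodes a nuclear receptor of the hepatocyte program, fell from 284 ± 14.0 to 189 ± 7.20 CPM (log2 fold change -0.59, adjusted p = 3.38e-04 in the same test), and *Foxa1*, a pioneer factor, rose by 0.38 (adjusted p = 0.0479 in the same test). *Jak2* is named after its values were seen. *Cebpb*, the most abundant gene of the list, had 214 ± 56.1 CPM against 232 ± 29.2 and did not pass. The calls of *Ghr*, *Bcl6* and *Foxa1* rest on few libraries. Without STING-LKO replicate 2 the adjusted p was 0.0557 for *Ghr* and 0.0622 for *Bcl6*, which was also above 0.05 without STING-LKO replicate 1 or 3 (0.0527 and 0.0553, all in the edgeR quasi-likelihood test). For *Foxa1* it was between 0.0544 and 0.155 without any one of the 6 libraries.

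Because *Mup* expression is sex-biased, other genes with known male or female bias in liver were counted. Of 16 male-biased genes tested, 4 fell and 2 rose past the test, beside 11.6% and 11.5% of all tested genes, with a median log2 fold change of -0.09. The number that rose was thus near the share over all genes. *Selenbp2* fell from 77.4 ± 8.48 to 8.95 ± 0.363 CPM (log2 fold change -3.11, adjusted p = 6.26e-07 in the edgeR quasi-likelihood test) and *Serpina1e*, an alpha-1-antitrypsin copy and the most abundant of the list, fell from 2870 ± 64.5 to 1500 ± 16.3 CPM (adjusted p = 5.59e-06 in the same test). *Gstp2* fell by 0.64, while the fatty acid hydroxylases *Cyp4a12a* and *Cyp4a12b* rose by 0.78 and 0.53 (adjusted p from 8.14e-04 to 0.0300 in the same test). *Selenbp2*, *Serpina1e*, *Gstp2* and the *Cyp4a12* pair all have close paralogs. Of 25 female-biased genes only 6 had enough counts, and 6 others, among them *Cyp3a41a*, *Sult2a1* and *Hao2*, had 0 counts in every library. Of the 6 tested, 4 rose and 1 fell, read beside the same shares of all tested genes. *Cyp4a14* rose from 364 ± 14.7 to 620 ± 7.68 CPM (log2 fold change 0.77, adjusted p = 4.89e-05 in the same test). *Cyp2c69* and *Cyp2c40*, both at under 5 CPM, rose by 1.61 and 0.90, and *Nipal1* rose from 67.4 ± 8.92 to 86.9 ± 5.97 CPM (log2 fold change 0.37). *Cyp17a1* fell by 2.49 (adjusted p = 0.00303 in the same test). It had a mean of only 0.502 FPKM in STING-Loxp and 0.0918 in STING-LKO, below the level that the naming rule asks for. These counts moved when single libraries were left out, with 2 male-biased genes lower without STING-Loxp replicate 2 or 3 or STING-LKO replicate 2, and 2 female-biased genes higher without STING-LKO replicate 1. *Gstp2* was above an adjusted p of 0.05 without STING-Loxp replicate 2 or 3 or STING-LKO replicate 1 or 2 (0.0739 to 0.0934), *Cyp4a12b* without replicate 3 of either group (0.0531 and 0.0586), *Cyp2c40* without STING-LKO replicate 1 (0.0593), and *Nipal1* without any library but STING-Loxp replicate 1 (0.0508 to 0.110).

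**Figure D5:**
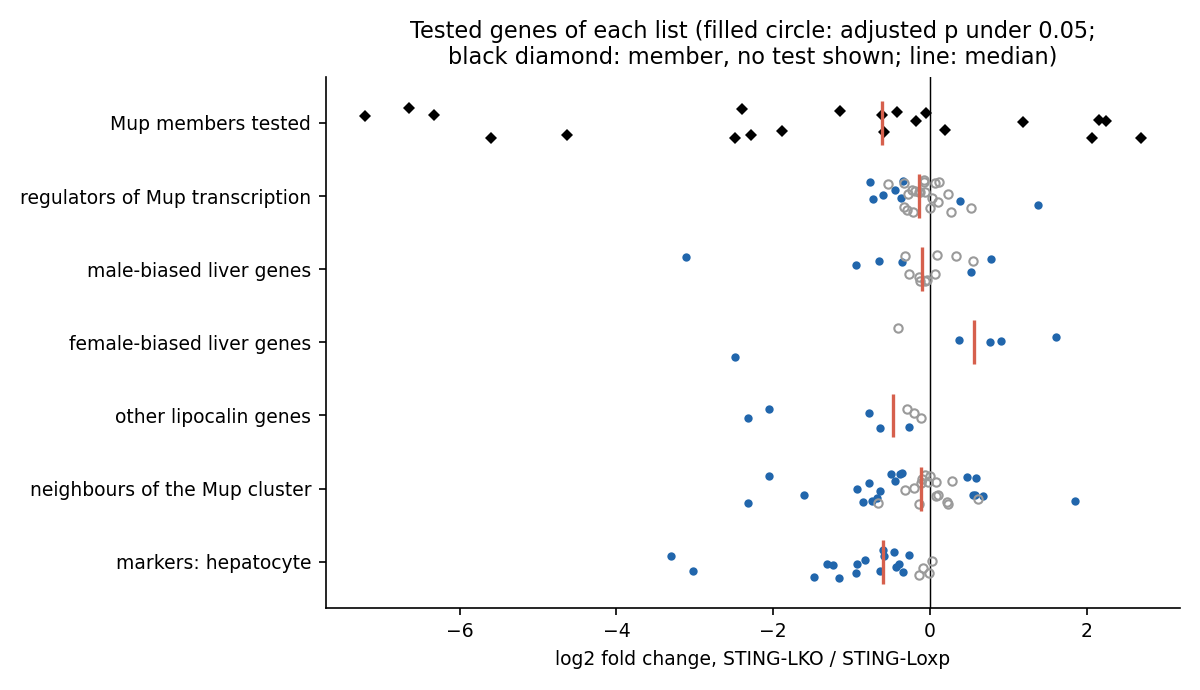
Each point is the log2 fold change of 1 tested gene, by list. Members are black diamonds with no test shown, other genes are filled where the adjusted p is under 0.05 and open where it is not, and a vertical line marks the median of a list, -0.61 for the members and between -0.59 and 0.57 for the other lists.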

How the data were processed

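Primary hepatocyte RNA was sequenced as paired 150-base reads in 6 libraries, 3 per group, grouped by their titles and genotype labels. The authors deposited 1 table with a raw count and an FPKM value per gene and library, and the submitters' processing notes name fastp, HISAT2, StringTie, edgeR and GRCm39. The deposited counts are whole numbers without normalization, and FPKM divides each by 1 fixed gene length and by all counted reads of that library. The annotation, counting tool, strand setting and treatment of multiply mapping reads are not given in the sources used here. With edgeR 4.0.16 in R 4.3.3, a fit over all genes was made: filterByExpr (minimum count 10) left 14151 genes, followed by TMM (factors 0.972 to 1.02), and the quasi-likelihood test, two-sided, with p-values adjusted by Benjamini-Hochberg (biological coefficient of variation 0.118). Replicates differed by more than counting noise (chi-square per degree of freedom 7.60 to 16.1). The step was tested on simulated data.

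Named are all members with a group mean over 1 FPKM, and from each list the 5 genes past the test with the largest changes and such a mean, the most abundant gene, and *Ghr*, *Stat5b*, *Bcl6*, *Cux2*, *Socs2*, *Cish* and *Igf1*, plus the nearest tested neighbours. The members, lists and tests were chosen with earlier results of these data known. Lists were written by hand. Members get no p. A gene of the regulator list and a lymphocyte marker are not reported here by name. Coding sequences and transcripts came from GENCODE M21 (GRCm38), matched by gene name, and promoters from RefSeq (GRCm38.p6). Coding sequences were aligned with mafft 7.526. Alternatives were DESeq2 1.42.0 (Wald test, or its size factors in edgeR), no TMM factors, other low-count filters, the replicate number as a block, limma 3.58.1 on log2(FPKM + 1) or log2(FPKM + 0.1), and each library left out.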

Additional observations from a re-analysis of the deposited data

How the results depend on the processing

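The counts of members lower (10) and higher (5) stayed within 9 to 13 and at 5 under all alternatives tried, and the summed level of the family, the central copies and the divergent members kept its direction. Summed as FPKM, the log2 ratio was -1.46 for the family and -1.80 for the central copies, beside -1.32 and -1.56 as CPM. Without *Mup12* and *Mup17* the central ratio was -0.84, and without *Mup3* the divergent ratio was 1.68 beside 0.14. With a library left out in turn, the family ratio ran from -1.34 to -1.29. Over the tested members, 1 of 273 values reversed, a log2 fold change of *Mup3*. It ran from -0.095 to 0.012 with single libraries left out and was above 0 without STING-Loxp replicate 1. Another 7 values moved in size and kept their direction. Among them were *Mup5* with limma on log2(FPKM + 1), at -3.41 beside -6.65, and *Mup11* without STING-Loxp replicate 1, at 3.22 beside 2.69. Of other named genes, *Cebpb* (-0.056 to 0.33) reversed without STING-Loxp replicate 1 and *Zfp37* (-0.56 to 0.044) without STING-Loxp replicate 2. With no filter beyond 1 count in a library, the regulators higher were 1 in place of 2 and the female-biased genes lower 2 in place of 1. With single libraries left out, the regulators higher ran from 1 to 2, the male-biased genes lower from 2 to 4 and higher from 1 to 3, the female-biased genes higher from 2 to 4 and the other lipocalins lower from 4 to 8.

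The libraries share replicate numbers, but deviations of same-numbered libraries correlated at 0.12, 0.08 and 0.01, so the numbers were not taken to pair them. With the replicate block, 10 members were lower and 5 higher, and the family ratio was -1.32. For *Mup5*, leaving out STING-LKO replicate 3 leaves its group at 0 counts, so no fold is given. Depth limits *Mup5* and the female-biased genes, most of which had too few counts to be tested.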
